A study of Mus musculus with 3 samples.

Results

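The binding of ETO2 was examined at the 2 globin gene clusters of the mouse, the beta cluster on chromosome 7 (Hbb-y, Hbb-bh1, Hbb-b1 and Hbb-b2) and the alpha cluster on chromosome 11 (Hba-x, Hba-a1 and Hba-a2). Every ETO2 peak whose summit lay within 100 kb of 1 of these 7 genes was taken, so the choice rested on position and not on signal. This gave 3 regions of the 3193 that remain when the overlapping peaks of both lists are joined, made of 3 of the 2335 peaks of replicate 1 and 2 of the 1873 peaks of replicate 2. Both regions of the beta cluster were called in both replicates, and the single region of the alpha cluster was called in replicate 1 alone.

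The data came from wild-type J1 mouse embryonic stem cells, of strain C57Bl/6 X Sv129 per the labels, that were grown into embryoid bodies and from which FLK1+ mesodermal cells were isolated with magnetic columns. FLK1 is the receptor that marks mesoderm able to form blood and vessels, and the labels place the samples at day 4. There were 2 chromatin immunoprecipitation (ChIP) libraries labelled as replicates, made with an antibody against ETO2, and 1 input library without antibody, all of the same strain and stage. No mutant, treated or FLK1- group was part of these libraries, so nothing below compares conditions, and no cell type marker was checked because these libraries hold no RNA measurement. Replicate 1 was called against the input and replicate 2 without it, so fold enrichments were ranked within each list. Fragment numbers of the replicates are set side by side below as a description of these libraries. The labels do not say whether the replicates came from separate cultures or separate immunoprecipitations, and both lists were deposited under 1 ChIP name, so a call in both replicates is a call in 2 libraries that may share material. With 2 libraries no test between them was made, and the intervals below are exact 95% Poisson or Clopper-Pearson intervals that cover counting error only.

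ETO2, the product of Cbfa2t3, is a co-repressor that does not read DNA by itself but is carried to chromatin by a complex of SCL, an E-protein, LMO2, LDB1 and a GATA factor. In this complex SCL and its E-protein partner contact an E-box (CANNTG, often only its CTG part) and the GATA factor contacts a nearby GATA word. The globin genes encode the chains of haemoglobin and are switched on later, in red blood cells. Hbb-y, Hbb-bh1 and Hba-x are the embryonic genes, used in the first red cells of the yolk sac, whereas Hbb-b1, Hbb-b2, Hba-a1 and Hba-a2 are the main genes of the fetus and adult. Each cluster depends on distant enhancers upstream of its embryonic gene, namely the locus control region of the beta cluster and the elements R1 to R4 of the alpha cluster.

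The DNA under the 3 summits carried the words read by this complex, in different arrangements. The sequences are the plus strand of build mm9, 200 bp each with the replicate 1 summit at base 101, and are shown because the order and spacing of these words differed between the sites. Capitals mark GATA words (the word AGATAA, the word AGATAG, the word TGATAA and the word TGATAG, on either strand), E-boxes of the form CAGCTG, and the CTG of a CTG that precedes a GATA by 8 to 10 bases.
control-region site, chr7:111025713-111025912: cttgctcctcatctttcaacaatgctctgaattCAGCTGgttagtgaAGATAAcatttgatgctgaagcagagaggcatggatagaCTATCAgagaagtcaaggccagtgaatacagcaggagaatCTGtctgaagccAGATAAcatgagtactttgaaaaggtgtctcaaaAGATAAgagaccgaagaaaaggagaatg
far upstream site, chr7:111058624-111058823: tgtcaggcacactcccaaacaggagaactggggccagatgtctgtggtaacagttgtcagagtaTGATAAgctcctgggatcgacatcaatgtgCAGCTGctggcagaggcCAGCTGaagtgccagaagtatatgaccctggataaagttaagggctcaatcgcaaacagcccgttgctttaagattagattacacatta
Il9r intron site, chr11:32096145-32096344: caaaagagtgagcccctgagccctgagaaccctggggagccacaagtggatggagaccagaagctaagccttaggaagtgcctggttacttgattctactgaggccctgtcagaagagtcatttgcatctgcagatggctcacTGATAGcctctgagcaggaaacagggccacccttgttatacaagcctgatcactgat
The control-region site was the richest in GATA words, the far upstream site had a pair of CAGCTG E-boxes on its summit and 1 GATA word beside them, and the Il9r intron site had 1 complete GATA word in the stretch shown and neither a CAGCTG nor a spaced CTG.

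The control-region site lay upstream of the beta cluster, on the side of the embryonic genes. Its summit was 24.1 kb upstream of the start of Hbb-y, 34.1 kb upstream of Hbb-bh1, 49.2 kb upstream of Hbb-b1 and 63.3 kb upstream of Hbb-b2. This is inside the window 5 to 40 kb upstream of Hbb-y that was taken here for the locus control region, whose single hypersensitive sites are not in the annotation used and were not assigned. The site was intergenic, 4.01 kb from the gene Olfr66, which encodes an olfactory receptor and had the nearest protein-coding start at 4.94 kb. In replicate 1 the peak covered chr7:111025655-111025984 (330 bp, summit at 111025813), with 46 fragments at the summit (33.7 to 61.4), a fold enrichment of 12.4 over the local background and a −log10 p of 49.5 (−log10 q 44.7, score 446). In replicate 2 it covered chr7:111025736-111025926 (191 bp, summit at 111025810), with 34 fragments (23.5 to 47.5), a fold enrichment of 5.65 and a −log10 p of 17.2 (−log10 q 12.8, score 127). The peak thus stood higher in one list than in the other, at rank 134 of 2335 by fold enrichment in replicate 1 (percentile 94.3) and at rank 602 of 1873 in replicate 2 (percentile 67.4).

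The far upstream site was the strongest of the 3 in replicate 1 and the stronger of the 2 called in replicate 2. Its summit lay 57.0 kb upstream of the start of Hbb-y, 67.0 kb upstream of Hbb-bh1, 82.1 kb upstream of Hbb-b1 and 96.2 kb upstream of Hbb-b2, outside the window taken for the locus control region and inside one taken 50 to 70 kb upstream. It was intergenic between the olfactory receptor genes Olfr65, 2.76 kb away with its start at 3.87 kb, and Olfr631, 4.85 kb away. In replicate 1 the peak covered chr7:111058530-111058952 (423 bp, summit at 111058724), with 75 fragments (59.0 to 94.0), a fold enrichment of 20.1 and a −log10 p of 100.3 (−log10 q 94.7, score 946). In replicate 2 it covered chr7:111058524-111058910 (387 bp, summit at 111058748), with 99 fragments (80.5 to 120.5), a fold enrichment of 15.0 and a −log10 p of 85.2 (−log10 q 79.0, score 790). It ranked 21 of 2335 in replicate 1 and 11 of 1873 in replicate 2, so that more than 99% of the peaks of each list had a lower fold enrichment (99.1% and 99.4%).

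The Il9r intron site was the only region near the alpha cluster, and it lay far from the globin genes. Its summit was inside an intron of Il9r, the gene of the interleukin 9 receptor, 3.98 kb from the Il9r start, and 9.17 kb from Snrnp25, a gene of the minor spliceosome. It was 80.2 kb upstream of Hba-x, 87.3 kb upstream of Hba-a1 and 100.2 kb upstream of Hba-a2, so the last gene had no region within 100 kb. In replicate 1 the peak covered chr11:32096054-32096397 (344 bp, summit at 32096245), with 43 fragments (31.1 to 57.9), a fold enrichment of 7.34 and a −log10 p of 32.3 (−log10 q 27.8, score 277), at rank 545 of 2335. No replicate 2 peak overlapped it. Its local background of 7.0 scaled fragments was 1.73 times the genome average of 4.06, whereas that of both beta sites in replicate 1 was at the genome average, so its fold enrichment was lower than that of the control-region site although their fragment numbers in that library were 43 and 46.

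**Figure D1:**
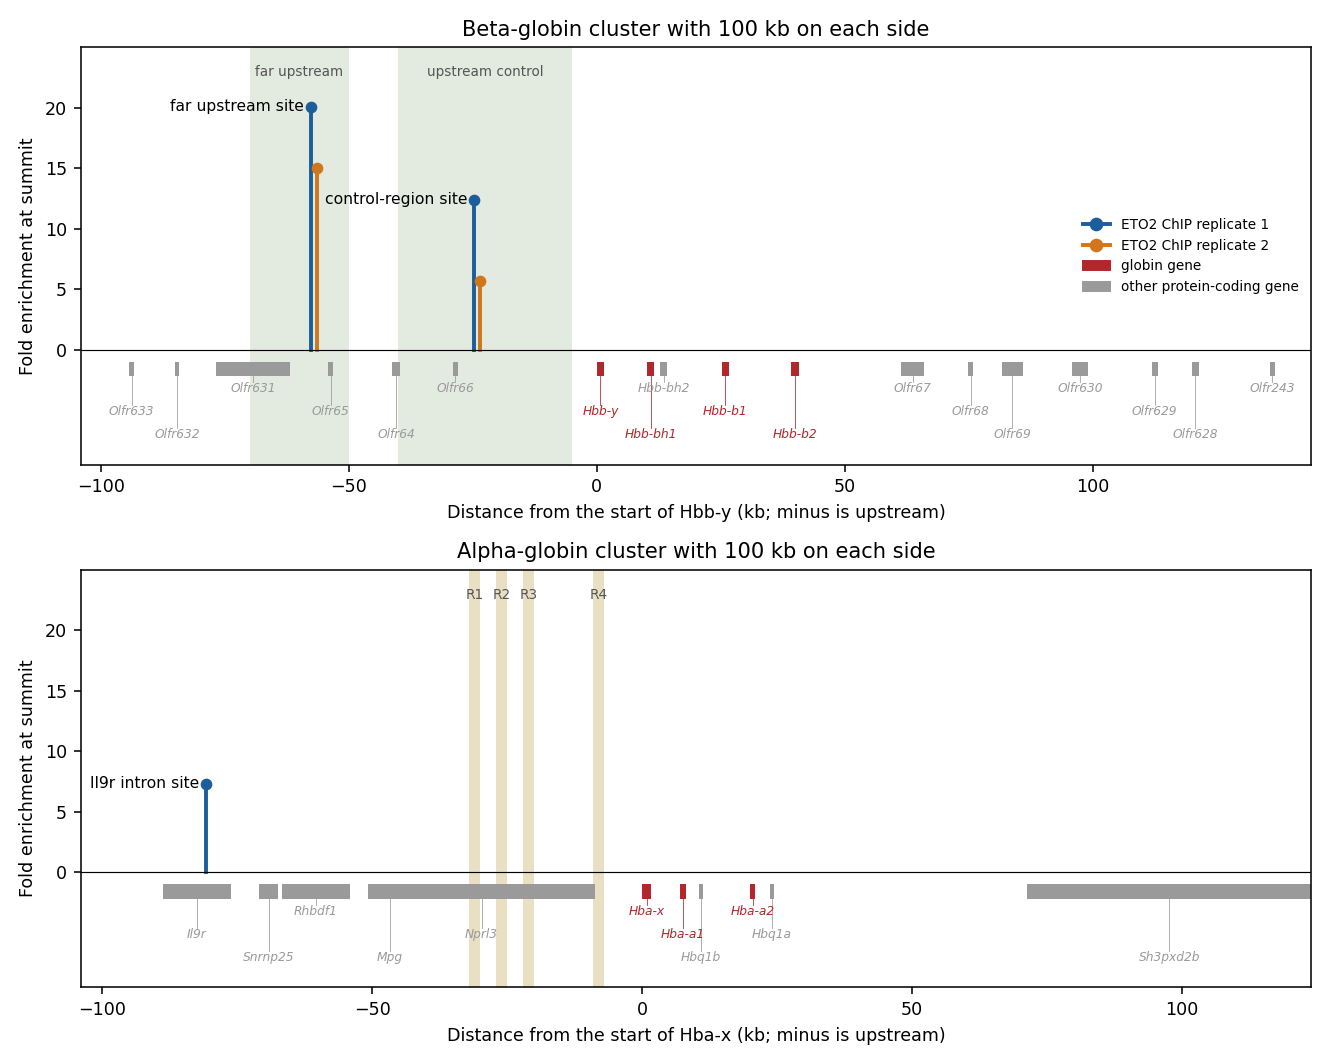
ETO2 peaks at the beta-globin cluster (upper panel) and the alpha-globin cluster (lower panel), with distance from the start of Hbb-y or Hba-x in kb on the horizontal axis (minus is upstream) and fold enrichment at the summit on the vertical axis. Blue stems are replicate 1 peaks and orange stems replicate 2 peaks (drawn 0.6 kb to either side of the summit so that both can be seen), boxes are protein-coding genes with the 7 globin genes in red, and shaded bands are the element windows. The far upstream site reached 20.1 and 15.0, the control-region site 12.4 and 5.65, and the Il9r intron site 7.34 in replicate 1 only, and no stem stands over a globin gene or over R1 to R4.

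The replicates placed the beta sites at nearly the same base but differed in how they ranked the control-region site. The summits of the control-region site were 3 bp apart and those of the far upstream site 24 bp apart, compared with a median of 26 bp over the 1016 overlapping pairs of peaks. The replicate 2 peak of the control-region site lay wholly inside the replicate 1 peak and took up 57.9% of it (191 bp shared), and at the far upstream site the 381 bp shared were 90.1% of the replicate 1 peak and 98.4% of the replicate 2 peak. The control-region site had 46 fragments in replicate 1 and 34 in replicate 2, a ratio of 0.739, and the far upstream site had 75 and 99, a ratio of 1.32. Over all pairs the median ratio was 1.0 and the quartiles were 0.806 and 1.23, so that one site lay below the lower quartile and the other above the upper quartile. Within each library the far upstream site had more fragments than the control-region site, 1.63 times as many in replicate 1 (1.11 to 2.41) and 2.91 times as many in replicate 2 (1.95 to 4.44). No difference between the libraries was tested.

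Measured against the average coverage of each ChIP library, recovered from the peak lists as 3.02 fragments in replicate 1 and 5.19 in replicate 2, the far upstream site was at 24.8 times the average in replicate 1 (19.5 to 31.1) and 19.1 times in replicate 2 (15.5 to 23.2). The control-region site was at 15.2 times the average in replicate 1 (11.1 to 20.3) and 6.55 times in replicate 2 (4.54 to 9.15). The Il9r intron site was at 14.2 times the average of replicate 1 (10.3 to 19.2). These intervals hold no spread between libraries, so a difference between the replicates cannot be judged from them.

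The calls of the beta sites in both libraries, 2 of 3 replicate 1 peaks and 2 of 2 replicate 2 peaks, were read against the whole lists. Of all replicate 1 peaks 43.0% (1003 of 2335) overlapped a replicate 2 peak, and of all replicate 2 peaks 54.2% (1015 of 1873) overlapped a replicate 1 peak. Sharing depended on signal, so each site was also set beside replicate 1 peaks with a like number of fragments. Of the 129 peaks with 43 to 49 fragments, as at the control-region site, 83.7% (108) were called in replicate 2, and of the 22 peaks with 72 to 78 fragments, as at the far upstream site, 100% were. Of the 161 peaks with 40 to 46 fragments, as at the Il9r intron site, 80.1% (129) were called in replicate 2, so a peak of its size without a partner was in the minority. Among the 1332 peaks called in replicate 1 alone it ranked 92 by fold enrichment, and their medians were a fold enrichment of 4.64 and 22 fragments.

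**Figure D2:**
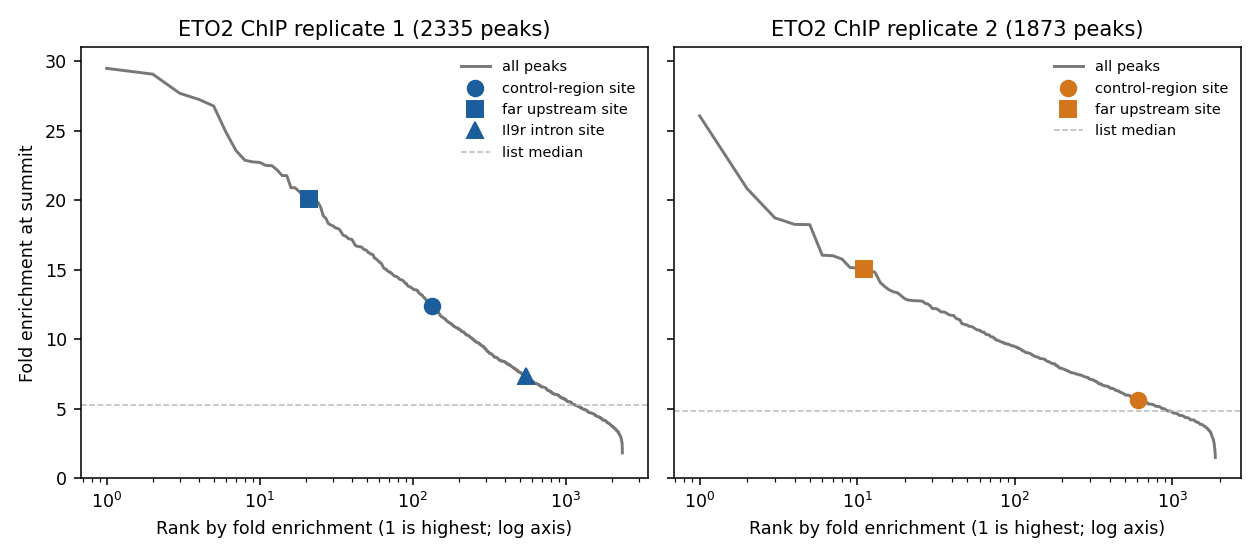
All peaks of replicate 1 (left, 2335 peaks) and replicate 2 (right, 1873 peaks) ordered by fold enrichment, with rank on a logarithmic horizontal axis and fold enrichment at the summit on the vertical axis. The grey line is every peak, the dashed line the list median (5.24 and 4.85), and symbols are the globin sites: the far upstream site (square) stands at rank 21 and 11, the control-region site (circle) at rank 134 and 602, and the Il9r intron site (triangle) at rank 545 of replicate 1.

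All 3 sites had a GATA word within the 100 bp centred on the replicate 1 summit. Such a word was present in 64.1% of all replicate 1 windows and 72.5% of those called in both replicates, and in 52.3% of all replicate 2 windows and 73.0% of those called in both, so most peaks called in both replicates shared this feature. From the replicate 2 summits the control-region site again had GATA words in the window, 3 of them, whereas the far upstream site had none, because its only GATA word near the summit lay 55 to 60 bp before the replicate 2 summit.

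The control-region site had 5 GATA words in its replicate 1 peak, 3 of them AGATAA and 2 TGATAG. For comparison, GATA words with their letters in backward order were counted. Some reversed words contain GATA and can share bases with a GATA word, so they are not a separate control. This peak held 3 reversed words, and its summit window held 2 beside 2 GATA words. Those at −146 to −141 bp and −15 to −10 bp from the replicate 1 summit each shared bases with a GATA word. The far upstream and Il9r intron peaks of replicate 1 held 2 and 1. That of the Il9r intron peak, at +97 to +102 bp, also shared bases with a GATA word. Such a reversed word was present in 13.0% of all replicate 1 windows. Counted along the plus strand from the replicate 1 summit, AGATAA began at −53, +38 and +72 bp, and TGATAG began at −147 and, on the minus strand, covered −14 to −9 bp. In 2 places a CTG preceded a GATA on the same strand at the spacing of 8 to 10 bases. The first pair, 9 bases apart, began at −64 bp and took its CTG from the CAGCTG E-box at −67 to −62 bp, so a complete E-box and a GATA word stood together. The second pair, 10 bases apart, began at +26 bp and shared its GATA with the word at +38 bp, and a second CTG stood 6 bases before the same GATA. In each replicate only the second pair lay wholly inside the 100 bp summit window. A pair at 8 to 10 bases was found in 29.9% of all replicate 1 summit windows and 24.3% of all replicate 2 windows. Among peaks called in both replicates, as this site was, the shares were 36.7% and 38.1%. CACCC, the word of Krüppel-like factors such as KLF1, and TGAGTCA, a word of the red cell factor NF-E2, were not found in this peak. Most peaks lacked them at the summit. CACCC was in 21.6% of all replicate 1 windows and 18.8% of all replicate 2 windows, and TGAGTCA in 2.01% and 2.35%.

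The far upstream site was arranged around E-boxes. A pair of CAGCTG E-boxes covered −6 to −1 bp and +11 to +16 bp from the replicate 1 summit, and −30 to −25 bp and −13 to −8 bp from the replicate 2 summit. Any CAGCTG was present in 12.6% of all replicate 1 windows and 12.0% of all replicate 2 windows, and any E-box, CAGCTG included, in 45.4% and 46.6%. Within 150 bp of the replicate 1 summit there were 3 further E-boxes, CAGTTG at −50, CAGATG at −66 and CACTTG at −114 bp, and 6 E-boxes were found in the whole peak. The GATA word TGATAA covered −36 to −31 bp, and a second GATA word lay farther out in the replicate 1 peak. No CTG preceded a GATA by 6 to 10 bases. TGTGGT, the word of RUNX factors, stood at −58 to −53 bp, outside the 100 bp window, in which 10.8% of all replicate 1 peaks and 12.0% of all replicate 2 peaks had it. CACCC and TGAGTCA were not found in this peak, and most summit windows of each list lacked them too.

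In its replicate 1 summit window the Il9r intron site held 1 GATA word and 3 E-boxes, the same numbers as the far upstream site. The control-region site held 2 and 1. Unlike the far upstream site, the Il9r intron site had no CAGCTG in this window. It had the GATA word TGATAG at +43 to +48 bp, another at +96 to +101 bp and AGATAA at −143 to −138 bp. Of the 7 E-boxes in its peak, 3 adjoined each other from +19 to +36 bp, where CATTTG began at +19 bp, CATCTG at +25 bp and CAGATG at +31 bp. The form CAGCTG stood at −111 to −106 bp, CAAGTG began at −58 bp and CACATG at +114 bp, and the remaining E-box lay farther from the summit than these. AGGAA, the core word of ETS factors, was found 3 times in the peak, at −28, +58 and +108 bp, and 43.5% of all replicate 1 summit windows held it. Neither beta site had AGGAA in its replicate 1 summit window, but the far upstream peak held 1 farther out and the control-region peak 0. CACCC was found 3 times in the peak, all outside the 100 bp window, which held it in 21.6% of all replicate 1 peaks. The single spaced CTG, 6 bases before the GATA of the word at +96 bp, belonged to the shorter class of 6 to 8 bases. This pair lay outside the 100 bp window, in which 17.1% of all replicate 1 peaks had one. The control-region site also had a pair of this class, inside its window. These matches are letters found in a window and were not tested for binding by any of the factors named.

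**Figure D3:**
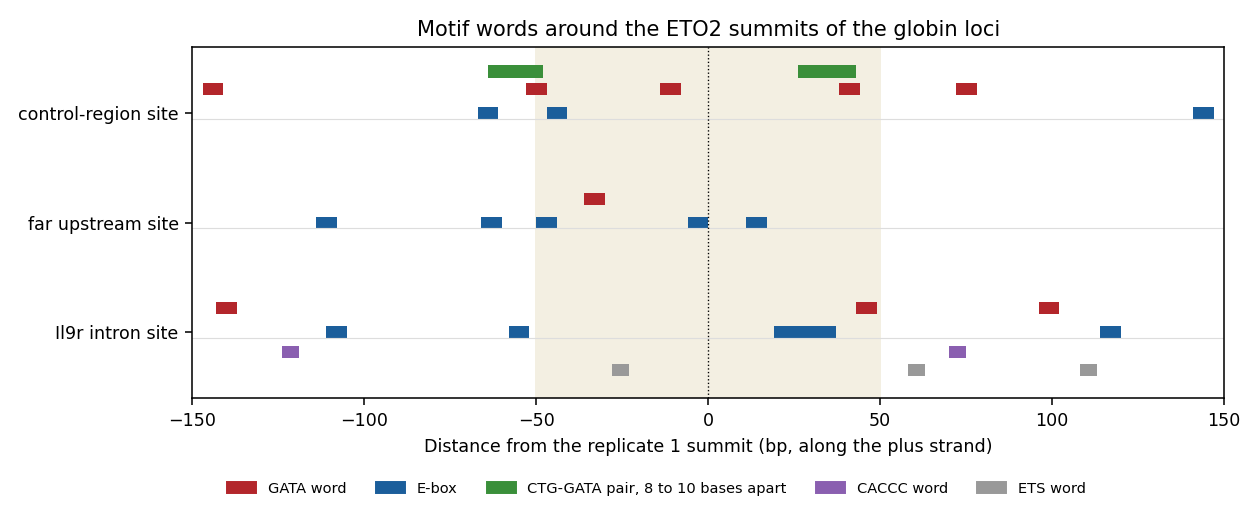
Motif words within 150 bp of the replicate 1 summit at the 3 sites, with distance along the plus strand in bp on the horizontal axis and a row for each site. Coloured blocks span the words (GATA, any E-box, CTG and GATA 8 to 10 bases apart, CACCC and ETS) and the shaded band is the 100 bp summit window. The control-region site shows 5 GATA words and both CTG-GATA pairs, the far upstream site an E-box on either side of its summit and 1 GATA word, and the Il9r intron site 3 adjoining E-boxes from +19 to +36 bp and GATA words at −143, +43 and +96 bp.

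GATA words were common across both loci, and few of them lay under a peak. The window from 100 kb before to 100 kb after the beta genes (240.7 kb) held 829 GATA words, 3.44 per kb, of which 7 (0.844%) were in the replicate 1 peaks, which make up 0.313% of the window. It held 106 CTG-GATA pairs of the longer spacing, of which 2, both at the control-region site, were under a peak, and 43 TGAGTCA and 355 CACCC words, of which 0 were. The alpha window (220.9 kb) held 390 GATA words, 1.77 per kb, of which 3 (0.769%) were in the Il9r intron peak, which makes up 0.156% of the window. It also held 71 CTG-GATA pairs, 40 TGAGTCA and 606 CACCC words, of which 0, 0 and 3 were in that peak. The GATA words and the pairs overlap, since the GATA of a pair can also be part of a GATA word. Of the reversed GATA words, 5 of 732 (0.683%) in the beta window and 1 of 307 (0.326%) in the alpha window were in replicate 1 peaks. Reversed words can share bases with GATA words, so these counts are not separate from the GATA counts. No difference between the words and their reversed form was tested.

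No ETO2 peak was called at the promoter or in the body of any of the 7 globin genes. Most genes were alike in this, since 27.0% of all protein-coding genes had any region even within 100 kb. Of the embryonic genes, Hbb-y (chr7:111000259-111001754, minus strand), Hbb-bh1 (chr7:110990150-110991678, minus strand) and Hba-x (chr11:32176400-32178116, plus strand) had 3, 4 and 5 GATA words within 500 bp of their starts. Of the fetal and adult genes, Hbb-b1 (chr7:110975048-110976610, minus strand) had 5, with 1 CTG-GATA pair spaced by 8 to 10 bases, Hbb-b2 (chr7:110961038-110962510, minus strand) had 4, Hba-a1 (chr11:32183511-32184465, plus strand) had 1 and Hba-a2 (chr11:32196489-32197301, plus strand) had 2. The alpha enhancers were also without a peak in either list. R1, R2 and R3, which lie within the neighbouring gene Nprl3, and R4, taken as 2 kb windows around 31, 26, 21 and 8 kb upstream of Hba-x, were 48.2, 53.2, 58.2 and 71.2 kb from the Il9r intron summit. They held 4, 5, 6 and 3 GATA words and 3, 1, 3 and 1 CTG-GATA pairs of the longer spacing.

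How far the absence of a peak can be read differs between these genes, because the study kept only reads that aligned to a single place. The share of 37-base words (the read length) that occur once in the genome was 100% in the promoters of Hbb-y, Hbb-bh1 and Hba-x, 80.3% in that of Hbb-b1, 70.9% in that of Hbb-b2, 13.1% in that of Hba-a1 and 7.36% in that of Hba-a2. Gene bodies were less unique still in the duplicated adult genes, at 30.8% for Hbb-b1, 26.5% for Hbb-b2, 4.03% for Hba-a1 and 4.76% for Hba-a2. At Hba-a1 and Hba-a2 the absence of a peak therefore cannot be read, although read pairs can place more than single words do. R1 was unique over 93.5% of its words and R2 to R4 over 100%, and the 3 ETO2 peaks lay in sequence that was 100% unique. At the unique promoters and enhancers ETO2 binding was not detected at this depth. Peaks with a local background at the genome average had at least 12 summit fragments in replicate 1 (401 such peaks) and at least 18 in replicate 2 (688), and weaker binding would not have been listed.

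**Figure D4:**
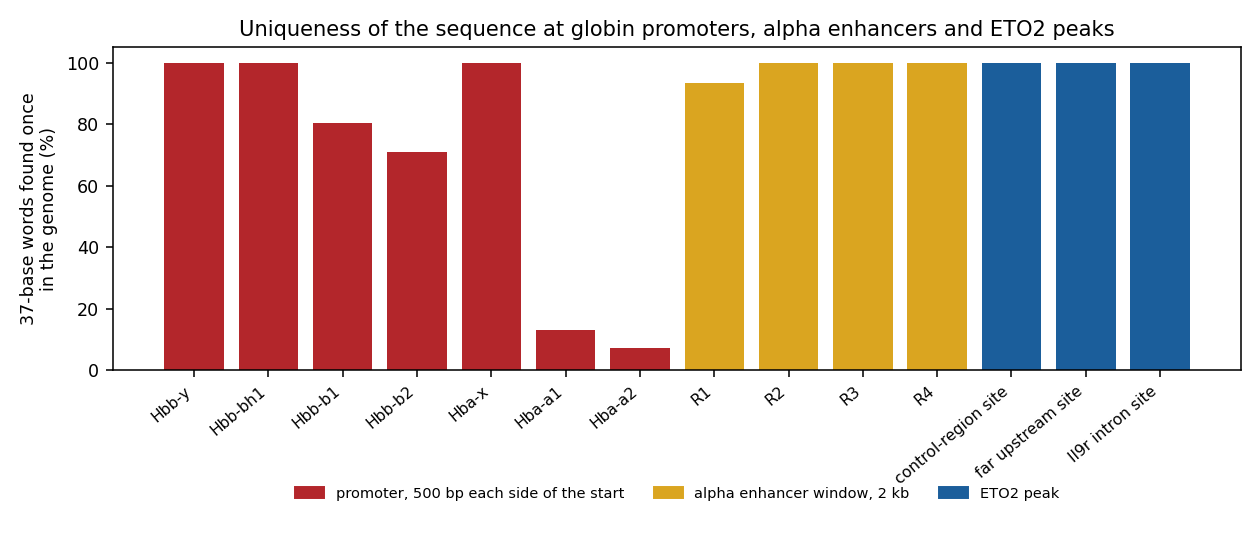
Share of 37-base words that occur once in the mm9 genome (vertical axis, percent) at the globin promoters (red, 500 bp to each side of the start), the alpha enhancer windows (yellow, 2 kb) and the ETO2 peaks (blue, replicate 1). The promoters of Hba-a1 and Hba-a2 stand at 13.1% and 7.36%, those of Hbb-b1 and Hbb-b2 at 80.3% and 70.9%, and the other bars between 93.5% and 100%.

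The beta genes had an ETO2 region called in both replicates closer to them than most genes of the genome did, and the alpha genes were farther from such a region than the beta genes were. Of 22380 protein-coding genes 27.0% (6034) had a region within 100 kb of the gene body and 10.7% (2404) had one called in both replicates, and 2.10% had at least 2 called in both. Each of the 4 beta genes had 2 regions called in both within 100 kb, and these are the same 2 regions counted for each gene. The nearest region called in both was closer than that of Hbb-y in 4.21% of all genes, of Hbb-bh1 in 5.19%, of Hbb-b1 in 6.43% and of Hbb-b2 in 7.69%. For the alpha genes the nearest region called in both lay 310 kb from Hba-x, 304 kb from Hba-a1 and 291 kb from Hba-a2, and 25.9%, 25.5% and 24.7% of all genes had a closer one. For any region the shares were 11.5% at Hbb-y and 23.2% at Hba-x. Over the genes on chromosomes with a region, the median distance was 265 kb to any region and 851 kb to one called in both. Genes of a cluster share their neighbourhood, so these shares are descriptions and were not tested.

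The far upstream and control-region sites stood alone in a long stretch without other calls. The 2 sites were 32.9 kb apart. The next region of either list lay 2.20 Mb away on the side of the globin genes and 1.32 Mb away on the other side, both called in replicate 2 only. Of the 3171 gaps between neighbouring regions in the genome 90.5% and 82.1% were shorter, and the median gap was 265 kb. In the beta window 84.1% of 37-base words were unique, and uniqueness farther out is not given here. Binding in repeated sequence could have been missed, so these gaps are gaps between calls. The Il9r intron site had its neighbours at 352 kb and 370 kb, and 54.9% and 55.9% of all gaps were shorter. At the limit of 100 kb the peaks inside lay at most 57.0 kb (beta) and 80.2 kb (alpha) from a globin gene in replicate 1, and the first peaks outside lay 2545 kb and 269 kb away in replicate 1, and 1375 kb and 291 kb away in replicate 2.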

How the data were processed

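ETO2 ChIP-seq of FLK1+ cells was used as 2 deposited peak lists and a list of positions for the whole series, and the input entered only through the replicate 1 values. Per the study's methods, 37 bp read pairs were aligned with Bowtie to mm9, keeping reads that aligned to 1 place, duplicates were removed and the authors called peaks per replicate with MACS2 (2.0.10, q-value 0.05). The deposited score, fold enrichment (a ratio to local background), −log10 p and −log10 q are the authors' own values.

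Summit fragments and local backgrounds were solved from the deposited fold enrichment and −log10 p with a Poisson model (largest error in −log10 p 9.4e-05, ChIP of replicate 1 scaled by 1.34). In lists simulated with the same model 100% of the fragments were recovered. The simulated peaks all had more fragments than the weakest deposited peaks, so recovery at the lowest counts was not tried. Chromosome names matched a reference of the same build, and no peak ran past a chromosome end. Genes came from its GENCODE annotation, coordinates count from 1, and peaks sharing 1 bp were called in both. Motifs were counted on both strands. Python 3.11.15, numpy 2.4.6, pandas 2.3.3, scipy 1.17.1 and matplotlib 3.10.9 were used. Every peak by the position rule, the globin genes and the nearest genes are named. The globin genes, element windows and motifs were chosen with earlier results of these data known. Other distances, thresholds, overlaps, windows and single libraries were tried as alternatives.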

Additional observations from a re-analysis of the deposited data

How the results depend on the processing

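With the limit at 50 kb from a globin gene the number of regions fell from 3 to 1 and the number called in both replicates from 2 to 1, which leaves the control-region site. At 200 kb, at a q-value of 1e-05 or less and at a fold enrichment of 5 or more both numbers stayed at 3 and 2, and the number called in both stayed at 2 with a reciprocal overlap of 50% or with summits within 100 bp. Leaving out 1 replicate gave 2 to 3 regions. The number of sites with a GATA word at the summit was 3 with a window of 200 bp and 1 with a window of 50 bp, and leaving out 1 replicate gave 1 to 3, the lowest being 1 of 2 sites with replicate 2 summits, where the far upstream site loses its word. Ranked by summit fragments in place of fold enrichment, the control-region site moved from the percentile 94.3 to 84.5 in replicate 1 and from 67.4 to 48.5 in replicate 2, whereas the far upstream site moved from 99.1 to 95.8 and from 99.4 to 94.98 and the Il9r intron site moved from 76.6 to 81.9. No paired analysis was possible because no result came from a test. Depth limits what an absent peak means, since fewer than 12 summit fragments in replicate 1 or 18 in replicate 2 were never listed, and the replicates had different controls.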

Other observations

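The other genes around the clusters had no ETO2 summit in their bodies apart from Il9r. The beta window held 18 protein-coding genes, 13 of them olfactory receptor genes, and the alpha window 11, among them Nprl3, Mpg, Rhbdf1 and Snrnp25 upstream, the globin-like genes Hbq1a and Hbq1b, and Sh3pxd2b downstream. The window taken for the locus control region held 139 GATA words and 16 CTG-GATA pairs spaced by 8 to 10 bases, and the control-region site covered 5 of these words and 2 of these pairs. The window 50 to 70 kb upstream of Hbb-y held 65 GATA words and 7 such pairs, and the far upstream site covered 2 of these words and 0 of these pairs.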
